A study of Mus musculus with 6 samples.

Results

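The nuclear-encoded subunits of the mitochondrial respiratory chain and ATP synthase were examined in whole embryonic mouse hearts with and without Wt1 in the cardiomyocyte lineage. Members were every gene of the count table whose symbol begins as a subunit of complexes I to V or cytochrome c (Ndufa, Ndufb, Ndufc, Ndufs and Ndufv with a number, Sdha to Sdhd, Uqcr, Cox4 to Cox8, Cyc1, Cycs and Atp5), without the 5 symbols marked as pseudogenes. This gave 90 of the 46983 genes listed. They comprised 7 core and 28 accessory subunits of complex I, 4 of complex II, 9 of complex III, cytochrome c, 18 of complex IV and 15 of complex V. The other 8 carried such a symbol without being standing subunits: Sdhaf1, Sdhaf2, Sdhaf3 and Sdhaf4 (assembly of complex II), Atp5s, Atp5sl, the supercomplex factor Cox7a2l and the Ndufa4 paralogue Ndufa4l2. All 90 were protein coding in the GRCm38 annotation and lay on 19 chromosomes. Of these, 88 had enough counts to be tested. Cox8c had no count in any heart, and Cox7b2, a testis-type isoform, had between 1 and 19 counts.

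Complexes I and II pass electrons from NADH and succinate to ubiquinone, complex III passes them on to cytochrome c, and complex IV hands them to oxygen. Complexes I, III and IV pump protons while doing so, and complex V (ATP synthase) uses the proton gradient to make ATP. Most subunits are encoded in the nucleus and imported, and a small set, all of them in complexes I, III, IV and V, is encoded in mitochondrial DNA. The heart is among the tissues richest in these proteins, and its mitochondria mature during embryonic life. Several complex IV subunits exist as a general form and a form restricted to heart and skeletal muscle.

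RNA was sequenced from 3 control and 3 mutant hearts of E13.5 embryos on a C57BL/6 x DBA/2 background. Each library came from the whole heart of a single embryo. The mutants were TnnT2Cre;Wt1flox, with both Wt1 alleles floxed and Cre driven by the cardiac troponin T promoter. The controls, called wild type in the sample labels, had both floxed Wt1 alleles and no Cre by the study's methods. A control for Cre alone was not among these hearts, so deletion of Wt1 and presence of Cre cannot be told apart. The driver recombines throughout the myocardium and, per the study, also in a fraction of epicardial cells. Hearts are named here by group and number: controls 2, 3 and 5, and mutants 1, 5 and 10.

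Total counts ran from 44244665 in control 5 to 56373393 in control 3. Wt1 itself stood between 10.2 and 20.9 FPKM (fragments scaled to gene length and library size) in controls and between 9.29 and 17.4 FPKM in mutants, a log2 fold change of -0.10 (adjusted p = 0.990). That count covers the whole gene in a tissue where epicardial cells also express Wt1, so it does not check the deletion in cardiomyocytes. The summed level of 10 cardiomyocyte markers lay between 27323 and 28190 FPKM in controls and between 27751 and 28959 FPKM in mutants. Their share of all counts was 2.32% in control 5 and between 2.65% and 2.79% in the other hearts. Single markers had log2 fold changes between -0.48 and 0.32, with 7 above 0 and 3 below, and the smallest adjusted p was 0.860 (edgeR). Control 5 stood apart: over the 17473 genes tested, a gene's deviation in this heart from its mean over the 6 hearts correlated with gene length at a Spearman rho of -0.43, so that short genes read high. The other hearts gave a rho between -0.06 and 0.33. The summed level of 8 erythroid markers was 60589 FPKM in control 5 and 62497 FPKM in mutant 10, against 19216 to 25660 FPKM in the other 4 hearts, and liver markers reached 870 FPKM in control 3 against 1.65 to 23.3 FPKM elsewhere. The median fold change of each complex is given below with and without control 5.

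Nuclear genes of the respiratory chain share promoter elements bound by nuclear respiratory factor 1 (NRF1), by ETS factors such as GABPA and by YY1, and 5 promoters that carry more than 1 of them are shown to let these be seen in place. RefSeq promoters of 300 bases around the start site (GRCm38.p6) were matched by symbol for 71 of the 90 members. Those with no entry included Ndufs1, Ndufa2, Ndufb9, Sdhc, Cyc1, Uqcrb, Uqcrc2, Uqcrq, Cox4i1, Cox4i2, Cox6a2, Cox6c, Cox8c, Atp5a1, Atp5f1, Atp5s, Atp5sl and Ndufa4l2. On either strand, the NRF1-type element GCGCNTGCG occurred in 26 of the 71 members (36.6%) and in 9.68% of the 17492 protein-coding genes with a promoter. The ETS-type element CCGGAAG occurred in 19 members (26.8%), against 12.9% of all. The YY1-type element AAGATGGCG occurred in 7 members (9.86%), against 2.14% of all. Letters recognised by the zinc fingers of WT1 and EGR factors were uncommon: GCGGGGGCG occurred in Atp5g2 and Sdhaf3 (2.82%, against 4.42% of all) and GCGTGGGAG in Cox5a (1.41%, against 0.64% of all). The 5 promoters below belong to Ndufs6 (chr13:73328433-73328732), Sdhd (chr9:50603800-50604099), Cox6a1 (chr5:115348909-115349208), Atp5h (chr11:115419870-115420169) and Atp5j (chr16:84834927-84835226), all on the minus strand and written 5′ to 3′ along the gene. Capitals mark the NRF1-type, ETS-type and YY1-type elements. The first NRF1-type element of Cox6a1 reads on both strands, and no other marked elements overlap.
Ndufs6: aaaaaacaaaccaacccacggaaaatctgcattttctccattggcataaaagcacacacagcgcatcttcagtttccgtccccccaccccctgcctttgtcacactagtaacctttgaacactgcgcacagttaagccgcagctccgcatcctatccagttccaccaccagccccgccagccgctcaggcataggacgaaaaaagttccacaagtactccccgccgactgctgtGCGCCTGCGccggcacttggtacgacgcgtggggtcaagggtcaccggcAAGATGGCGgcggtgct
Sdhd: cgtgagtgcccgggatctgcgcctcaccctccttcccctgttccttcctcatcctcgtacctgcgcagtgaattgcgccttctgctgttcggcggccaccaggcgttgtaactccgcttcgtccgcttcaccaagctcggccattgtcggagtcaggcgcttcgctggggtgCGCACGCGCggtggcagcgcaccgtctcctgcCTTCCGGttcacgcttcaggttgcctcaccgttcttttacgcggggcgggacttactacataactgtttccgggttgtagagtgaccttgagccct
Cox6a1: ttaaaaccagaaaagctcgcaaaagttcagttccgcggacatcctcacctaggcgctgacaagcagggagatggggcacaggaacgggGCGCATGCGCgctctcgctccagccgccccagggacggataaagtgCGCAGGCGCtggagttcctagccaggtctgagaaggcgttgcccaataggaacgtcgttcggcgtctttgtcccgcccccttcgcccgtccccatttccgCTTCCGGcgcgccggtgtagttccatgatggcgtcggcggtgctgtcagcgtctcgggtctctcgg
Atp5h: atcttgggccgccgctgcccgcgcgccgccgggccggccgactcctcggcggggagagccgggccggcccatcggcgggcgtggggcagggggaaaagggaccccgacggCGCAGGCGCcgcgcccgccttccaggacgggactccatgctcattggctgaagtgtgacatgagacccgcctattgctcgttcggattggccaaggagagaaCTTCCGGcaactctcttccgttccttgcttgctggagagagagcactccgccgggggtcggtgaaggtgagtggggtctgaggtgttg
Atp5j: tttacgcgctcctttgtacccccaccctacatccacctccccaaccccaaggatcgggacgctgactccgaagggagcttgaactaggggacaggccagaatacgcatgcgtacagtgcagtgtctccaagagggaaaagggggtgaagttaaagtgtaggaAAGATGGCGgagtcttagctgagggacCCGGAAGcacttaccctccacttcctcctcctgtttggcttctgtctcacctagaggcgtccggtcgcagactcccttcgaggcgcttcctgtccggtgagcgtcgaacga
The capitals in Ndufs6 are an NRF1-type and a YY1-type element, those in Sdhd and Atp5h an NRF1-type and an ETS-type element, those in Cox6a1 NRF1-type elements at 2 places and an ETS-type element, and those in Atp5j a YY1-type and an ETS-type element. Over the 26 members with an NRF1-type element the median log2 fold change, mutant over control, was -0.04, with 8 above 0. The other 44 tested members with a promoter entry had a median of -0.08, with 12 above 0. These letters are a description of the window and no evidence that a factor bound there.

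Respiratory chain genes were among the most strongly expressed in these hearts. The median level over the 90 members was 253 FPKM (mean of 6 hearts), against 8.04 FPKM over all genes tested, and 72 members exceeded 100 FPKM, a level that 6.86% of all genes tested passed. Complex V had the highest median at 560 FPKM, followed by complex III at 518, complex IV at 404 and complex II at 328 FPKM. Complex I had a median of 187 FPKM, with 257 for the core and 172 for the accessory subunits, and Cycs (cytochrome c) stood at 239 FPKM. The 8 genes that are not standing subunits had a median of 12.8 FPKM. Atp5b, the catalytic beta subunit of ATP synthase, ranked 11 among all genes of the table.

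**Figure D1:**
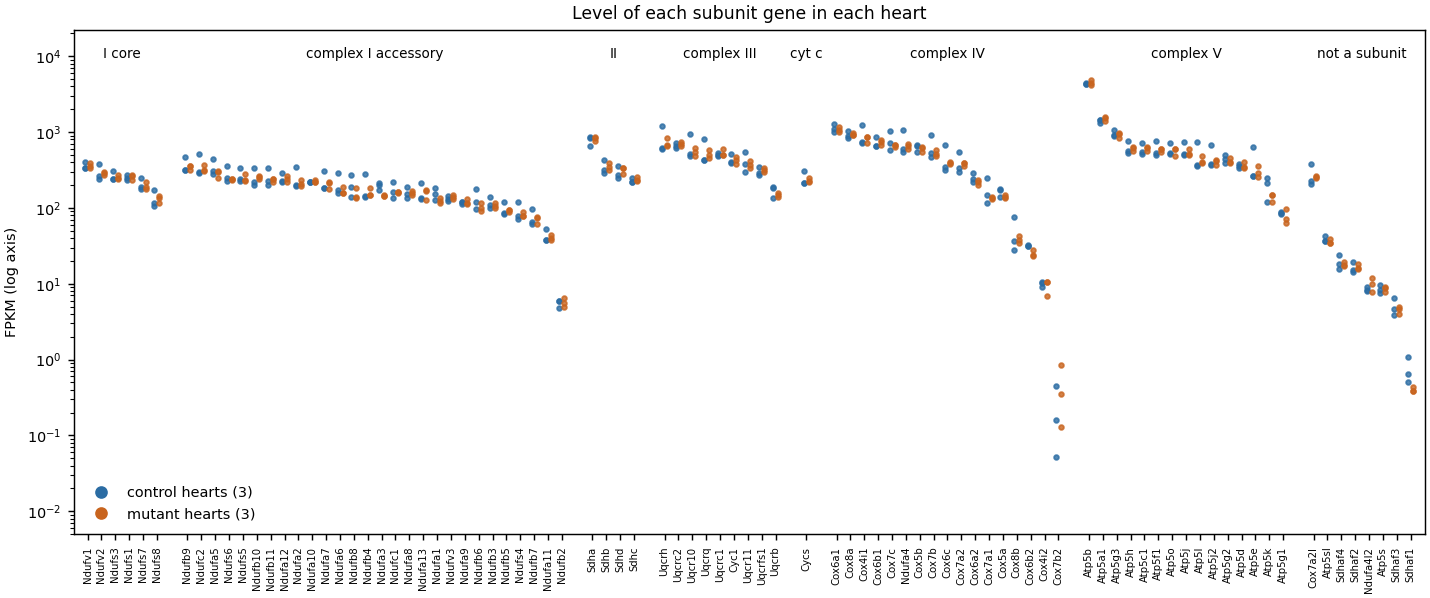
Level of 88 of the 90 genes (FPKM, log axis) in each of 3 control (blue) and 3 mutant (orange) hearts, grouped by complex and ordered by mean level; Cox8c, at 0 in all hearts, is among those not drawn. Most subunits lie above 100 FPKM, Atp5b lies above all others, and control and mutant points largely interleave.

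Levels between genes depend on the length by which the authors divided. For 11 members, among them Sdha, Atp5b, Atp5a1 and the complex I core gene Ndufs1, that length was shorter than the coding sequence. Per kilobase of coding sequence instead, Cox8a (2459 CPM per kilobase) and Atp5b (2425 CPM per kilobase) headed the list, and Sdha moved from rank 7 to rank 55 of the 90. Of the 10 genes highest by FPKM, 6 were also among the 10 highest per coding kilobase. Ndufb2 stood far below the other complex I subunits at 5.59 FPKM ± 0.68 (SD, n = 6), and 72.7% of its coding bases lie inside 2 other counted genes (Gm16272 and Gm42420). How reads from these bases were assigned was not tested. Ndufb2 was singled out after its value was seen.

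Mutant and control hearts were compared to ask whether respiratory chain transcripts changed with loss of Wt1 in the cardiomyocyte lineage. None of the 88 members passed the test (edgeR quasi-likelihood test, Benjamini-Hochberg adjusted p below 0.05 over all genes). Of all 17473 genes tested, 0.0% passed it. The smallest adjusted p among the members was 0.585, for Ndufa3. At an unadjusted p below 0.05 there were 3 members, 0 higher and 3 lower in mutants, or 3 of 88 where 5.73% of all genes tested were found (3.14% higher and 2.59% lower). The same 3 were the members whose groups did not overlap, all lower in mutants, against 4.59% of all genes tested lower and 6.61% higher without overlap. DESeq2 also called none of the members, against 0.69% of the genes it could call. The members' fold changes were small: those of the 80 standing subunits tested ran from -0.48 to 0.14 on the log2 scale.

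The direction of the whole group turned on control 5. With all 6 hearts, 27 of the 88 fold changes were above 0 and 61 below (49.8% of all genes were above 0), with a median log2 fold change of -0.06 against -0.0010 over all genes. Correcting each heart for its trend with gene length gave 53 above 0 (52.5% of all genes) and a median of 0.03, and no member passed the adjusted threshold there (0.0744% of all genes did). Without control 5, 76 of 89 were above 0 (50.7% of all genes) and the median was 0.15. In that fit 15 members were higher and 3 lower in mutants at an unadjusted p below 0.05, where 12.2% of all genes were found (6.54% higher and 5.69% lower), and again none passed the adjusted threshold (0.247% of all genes did). Correcting for length and leaving out control 5 together gave 73 of 89 above 0 (52.5% of all genes) and a median of 0.13. The count of 3 at an unadjusted p below 0.05 became 9 without control 3, and 1 without control 2, mutant 1 or mutant 5.

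**Figure D2:**
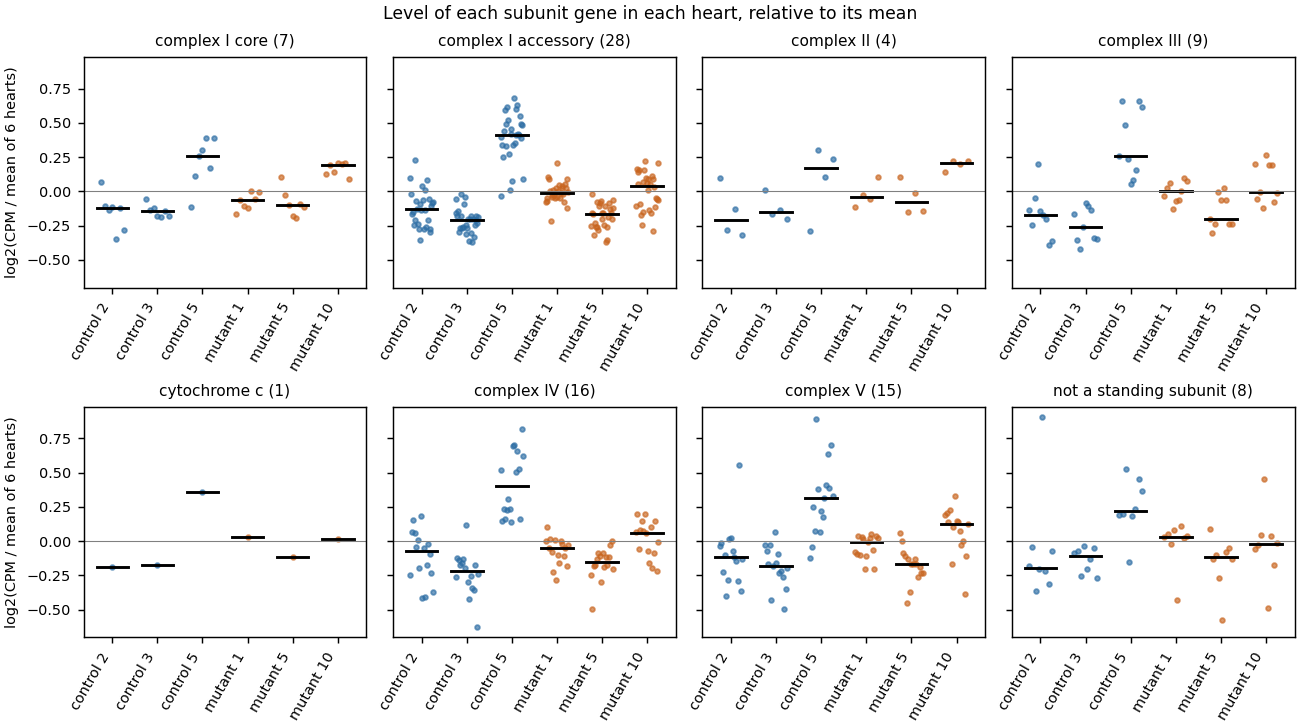
Each point is 1 gene in 1 heart, plotted as the log2 ratio of its CPM (count scaled to library size) to its mean over the 6 hearts; panels are complexes with the number of genes tested, and bars are medians. In every panel except complex II the median is highest in control 5, and controls 2 and 3 and mutant 5 lie below 0.

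By heart, 67 of the 88 members had their highest CPM in control 5, where 29.3% of all genes tested did, and 17 had it in mutant 10, where 14.9% of all genes did. Their lowest level fell in control 3 for 33 members, in control 2 for 29 and in mutant 5 for 20. The median deviation of the members from their own mean was 0.35 in control 5 and 0.09 in mutant 10 on the log2 CPM scale. It was 0.01 in mutant 1, -0.12 in control 2, -0.13 in mutant 5 and -0.17 in control 3. Both hearts at the top were also those with high erythroid markers, whose part in the members' levels was not tested. Together the members took 2.50%, 2.46% and 3.22% of all counts in controls 2, 3 and 5, and 2.68%, 2.53% and 2.76% in mutants 1, 5 and 10. The group means were 2.73% ± 0.43 and 2.65% ± 0.12 (SD, n = 3 each). The 3 mutant values lie within the range of the controls.

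The members were short genes, between 362 and 3096 bases long in the table, with a median of 730, against 1821 bases over all genes tested. Among the 44 shorter members 4 had a fold change above 0, and among the 44 longer ones 23 did. The rank correlation of fold change with length over the 88 members was 0.52 with all hearts, 0.19 after the length correction and 0.21 without control 5. These points share the same 6 libraries and are not replicates. In control 5 the shorter members deviated by a median of 0.44 and the longer by 0.26 on the log2 CPM scale, so longer members were also high in that heart. The 26 members that exceeded the mean of the other hearts by more than 1.5 times in control 5 included Atp5e (2.23 times), Cox8b (2.08 times) and Atp5l (1.87 times). Only 7 lay below that mean, among them Sdha, Atp5a1, Atp5b, Ndufs1 and Ndufa10. Of the Atp5l transcript, 84.8% of the 50-base windows are shared with other genes such as Gm10221, so its level is uncertain. Over 25% of windows were shared in 14 members. In bulk tissue, fewer cells of a type and less RNA per cell cannot be told apart.

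**Figure D3:**
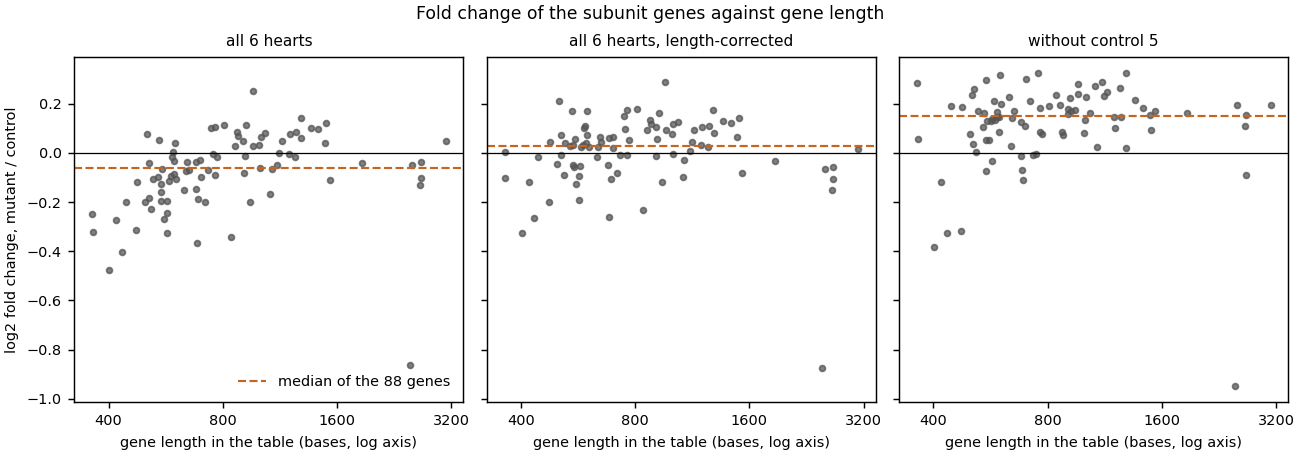
Log2 fold change, mutant over control, of 88 genes against gene length (bases, log axis) with all 6 hearts, after correcting each heart for length, and without control 5; the dashed line is the median. The cloud tilts upward with length in the left panel, is flatter in the middle panel and lies mostly above 0 in the right panel.

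In complex I, which oxidises NADH, the median log2 fold change was 0.03 over the 7 core subunits, with 4 above 0, and -0.09 over the 28 accessory subunits, with 7 above 0. Without control 5 the medians were 0.16 with 7 of 7 above 0 and 0.15 with 24 of 28 above 0, so the accessory median changed sign and the core and accessory values came together. Leaving out 1 heart at a time moved the core median between -0.09 and 0.16 and the accessory median between -0.21 and 0.15. Ndufv1, the NADH-binding subunit, stood at 357 ± 39.4 FPKM in controls and 361 ± 28.2 in mutants (SD, n = 3). Ndufs1, which carries iron-sulphur clusters, stood at 251 ± 18.3 and 256 ± 22.3 FPKM. Ndufs7, the subunit that holds the terminal cluster, stood at 204 ± 35.5 and 194 ± 21.8 FPKM. These core genes differed between groups by less than the spread within them.

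Ndufa3, an accessory subunit of the membrane arm, was the member with the smallest p. It measured 201, 171 and 212 FPKM in controls 2, 3 and 5 and 149, 142 and 143 FPKM in mutants 1, 5 and 10. All 3 mutants lay below all 3 controls, a separation that 4.59% of all genes tested showed in this direction. Its log2 fold change was -0.40 ± 0.11 (SE, unadjusted p = 0.0072, adjusted p = 0.585, edgeR), and between -0.49 and -0.32 with any heart left out. It was -0.32 without control 5 and -0.26 after the length correction, with an unadjusted p of 0.060 in edgeR. Ndufv3, a small flavoprotein-associated subunit, had the highest fold change in complex I at 0.11 ± 0.12 (adjusted p = 0.985). Its levels were 131, 122 and 144 FPKM in controls and 138, 131 and 149 FPKM in mutants, overlapping. The remaining accessory subunits had log2 fold changes between -0.37 and 0.09.

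Complex II, succinate dehydrogenase, has only nuclear-encoded subunits and links the chain to the citric acid cycle. All 4 subunits had a log2 fold change above 0, with a median of 0.10, and none passed the test. Without control 5 the median was 0.21 with 3 of 4 above 0, Sdha being the exception. Sdhd, a membrane anchor, was the highest at 0.14 ± 0.17 (SE, adjusted p = 0.985), with 250, 274 and 361 FPKM in controls 2, 3 and 5 and 337, 280 and 339 FPKM in mutants 1, 5 and 10. Without control 5, where it was highest, the value was 0.32. Sdha, the flavoprotein that oxidises succinate, had the reverse order in control 5. It measured 872, 824 and 653 FPKM in controls and 756, 866 and 840 FPKM in mutants, so that control 5 held the lowest value of the 6. Its ratio to Sdhb, the iron-sulphur partner with which it forms the catalytic head, was 2.99, 2.59 and 1.52 in controls 2, 3 and 5 and 2.16, 2.73 and 2.17 in mutants 1, 5 and 10. Sdhb stood at 347 ± 73.2 and 351 ± 34.9 FPKM, and Sdhc, the other anchor, at 228 ± 19.2 and 239 ± 13.7 FPKM (SD, n = 3).

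In complex III the median log2 fold change was -0.10, with 3 of 9 subunits above 0, and without control 5 it was 0.19, with 8 of 9 above 0. By CPM, Uqcrc1, Uqcrc2 and Uqcrfs1 were highest in mutant 10 and the other 6 subunits in control 5, and by FPKM Uqcrfs1 was also highest in control 5. The core proteins Uqcrc1 and Uqcrc2 and the Rieske iron-sulphur protein Uqcrfs1 had log2 fold changes of 0.11, 0.11 and 0.10, each with an adjusted p of 0.985. Uqcrc2 measured 613, 646 and 718 FPKM in controls and 665, 693 and 736 FPKM in mutants, highest in mutant 10. Uqcrh, the hinge protein that helps bind cytochrome c, measured 590, 613 and 1194 FPKM in controls 2, 3 and 5 and 830, 647 and 682 FPKM in mutants 1, 5 and 10. Control 5 was therefore above all other hearts, and the log2 fold change of -0.13 ± 0.27 became 0.30 without it. Uqcr10, a small peripheral subunit, was also highest in control 5, with 513, 479 and 941 FPKM in controls and 619, 487 and 547 in mutants. Its log2 fold change was -0.20 with all hearts and 0.19 without control 5. Cyc1, which carries haem c1, stood at 439 ± 69.2 and 428 ± 46.6 FPKM. Cycs, the mobile carrier between complexes III and IV, stood at 244 ± 52.5 FPKM in controls and 233 ± 14.2 in mutants (SD, n = 3). Part of the Cycs transcript, 28.5% of its 50-base windows, is shared with other genes such as Gm10053.

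Complex IV, cytochrome c oxidase, had the lowest median of the complexes at -0.15, with 2 of 16 tested subunits above 0. Without control 5 the median was 0.13, with 13 of 17 above 0. Cox6a1, the general form of subunit VIa and the most abundant complex IV transcript by FPKM, measured 1082, 1004 and 1282 FPKM in controls and 1058, 1009 and 1155 FPKM in mutants. Cox4i1, a regulatory subunit that binds ATP, measured 732, 726 and 1221 FPKM in controls 2, 3 and 5 and 872, 722 and 848 FPKM in mutants 1, 5 and 10, and its log2 fold change moved from -0.11 to 0.20 without control 5. Cox5b stood at 626 ± 67.1 and 596 ± 45.2 FPKM and Cox5a at 162 ± 19.8 and 140 ± 7.58 FPKM (SD, n = 3). Both surround the catalytic core. Of the Cox5a coding bases, 25.3% lie inside another counted gene, Gm26631. Cox6b1, which lies on the side where cytochrome c docks, had the highest fold change of the complex at 0.08 ± 0.15 (SE). Ndufa4, once assigned to complex I and now counted as a complex IV subunit, stood at 734 ± 285 FPKM in controls, with 1061 in control 5, and 648 ± 43.2 FPKM in mutants.

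Isoform use within complex IV was compared as a share of the summed FPKM, which cancels a heart's overall level. Such a share does not cancel a heart's trend with gene length, and paired genes differ in length (Cox7a1 364 bases, Cox7a2 754 bases). Each share depends on the gene lengths by which the authors divided. Cox6b2, a form known from testis, took 4.81%, 4.61% and 3.51% of Cox6b1 and Cox6b2 in controls 2, 3 and 5 and 3.08%, 3.29% and 3.39% in mutants 1, 5 and 10. The groups did not overlap, with means of 4.31% ± 0.70 and 3.25% ± 0.16 (SD, n = 3, two-sided exact permutation p = 0.10, the smallest this design allows, and 0.72 adjusted over 9 shares). Its own level was 32.6, 31.4 and 31.0 FPKM in controls and 23.7, 23.1 and 27.9 FPKM in mutants, a log2 fold change of -0.31 ± 0.13 (SE, unadjusted p = 0.044, adjusted p = 0.851, edgeR), and between -0.44 and -0.26 with any heart left out. After the length correction it was -0.20, with an unadjusted p of 0.30 in edgeR. Cox6b2 lies on chromosome 7 (chr7:4751792-4753094, GRCm38).

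The muscle forms made up a minor share in these embryonic hearts. Cox7a1, the muscle form of subunit VIIa, took 33.4%, 25.9% and 31.0% of Cox7a1 and Cox7a2 in controls 2, 3 and 5 and 26.0%, 27.2% and 24.6% in mutants 1, 5 and 10. The means were 30.1% ± 3.8 and 25.9% ± 1.3, with overlapping values (exact permutation p = 0.30). Per coding kilobase Cox7a1 stood at 232 CPM and Cox7a2 at 1181 CPM, against 153 and 389 FPKM (mean of 6 hearts). Cox6a2, the muscle form of subunit VIa, took 17.99% ± 0.23 and 16.9% ± 0.91 (exact permutation p = 0.20). Cox8b, the muscle form of subunit VIII, took 4.64% ± 1.82 and 3.96% ± 0.52 (exact permutation p = 0.90), with 6.70% in control 5. Cox4i2, a form induced by low oxygen, took 1.16% ± 0.27 of the Cox4 pair in controls and 1.12% ± 0.15 in mutants (exact permutation p = 0.80). Ndufa4l2, also known as a hypoxia-induced gene, took 1.25% ± 0.42 of its pair with Ndufa4 in controls and 1.495% ± 0.28 in mutants (exact permutation p = 0.60). With 3 hearts a group, none of these tests could give a p below 0.10.

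**Figure D4:**
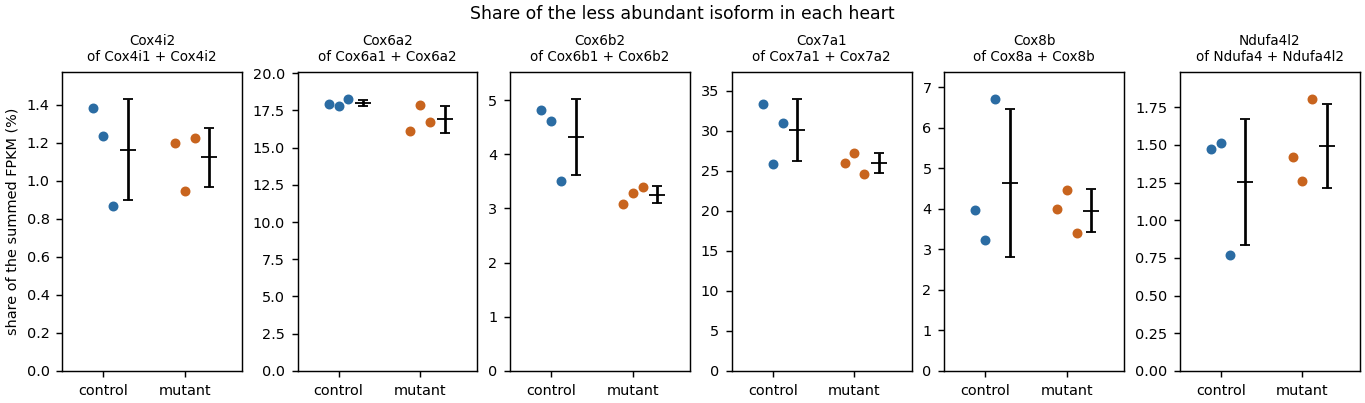
Share (%) of the less abundant isoform in the summed FPKM of each pair, in 3 control (blue) and 3 mutant (orange) hearts; black bars give mean ± SD, and each panel starts at 0. The groups do not overlap for Cox6b2, with controls from 3.51% to 4.81% and mutants from 3.08% to 3.39%, and overlap in the other 5 pairs.

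In complex V, 4 of 15 subunits had a fold change above 0 and the median was -0.04 on the log2 scale, and without control 5 these became 13 of 15 and 0.13. The alpha and beta subunits of its catalytic head varied little between hearts. Atp5b measured 4423, 4264 and 4241 FPKM in controls 2, 3 and 5 and 4194, 4427 and 4792 FPKM in mutants 1, 5 and 10, and its log2 fold change was 0.09 ± 0.13 (SE, adjusted p = 0.985). Atp5a1, the alpha subunit that alternates with beta in the head, measured 1441, 1452 and 1328 FPKM in controls and 1403, 1518 and 1569 FPKM in mutants. It had the highest fold change of the complex at 0.12 ± 0.13 (adjusted p = 0.985). The ratio of Atp5b to Atp5a1 was 3.07 ± 0.13 in controls and 2.99 ± 0.07 in mutants (SD, n = 3). Control 5, where most members were highest, held neither of these genes at its maximum. Atp5c1, the rotating gamma subunit, stood at 591 ± 102 and 606 ± 34.3 FPKM.

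Some small subunits of complex V varied more. Atp5e, the epsilon subunit, measured 266, 262 and 638 FPKM in controls 2, 3 and 5 and 361, 254 and 293 FPKM in mutants 1, 5 and 10. Control 5 lay far above the other 5 hearts, and the log2 fold change of -0.34 ± 0.34 became 0.23 without it. Atp5k, the e subunit involved in pairing of ATP synthases, had the lowest fold change of the complex at -0.48 ± 0.24 (adjusted p = 0.926). It measured 248, 120 and 216 FPKM in controls and 147, 146 and 120 FPKM in mutants, so that control 3 fell within the mutant range. The 3 genes for the c ring, the rotor through which protons pass, encode the same mature protein. Atp5g3 took 64.1% ± 1.0 of their summed FPKM in controls and 65.1% ± 1.2 in mutants, Atp5g2 took 30.1% ± 1.3 and 29.5% ± 0.73, and Atp5g1 took 5.79% ± 0.56 and 5.44% ± 0.80. Exact permutation p-values were 0.40, 0.40 and 0.60. These shares depend on the gene lengths in the table, 772, 640 and 2666 bases, against 423, 438 and 408 coding bases. Per coding kilobase Atp5g3, Atp5g2 and Atp5g1 stood at 1710, 633 and 534 CPM (mean of 6 hearts), so Atp5g1 lay closer to Atp5g2 by that measure. Of the Atp5g2 transcript windows, 38.3% are shared with other genes.

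**Figure D5:**
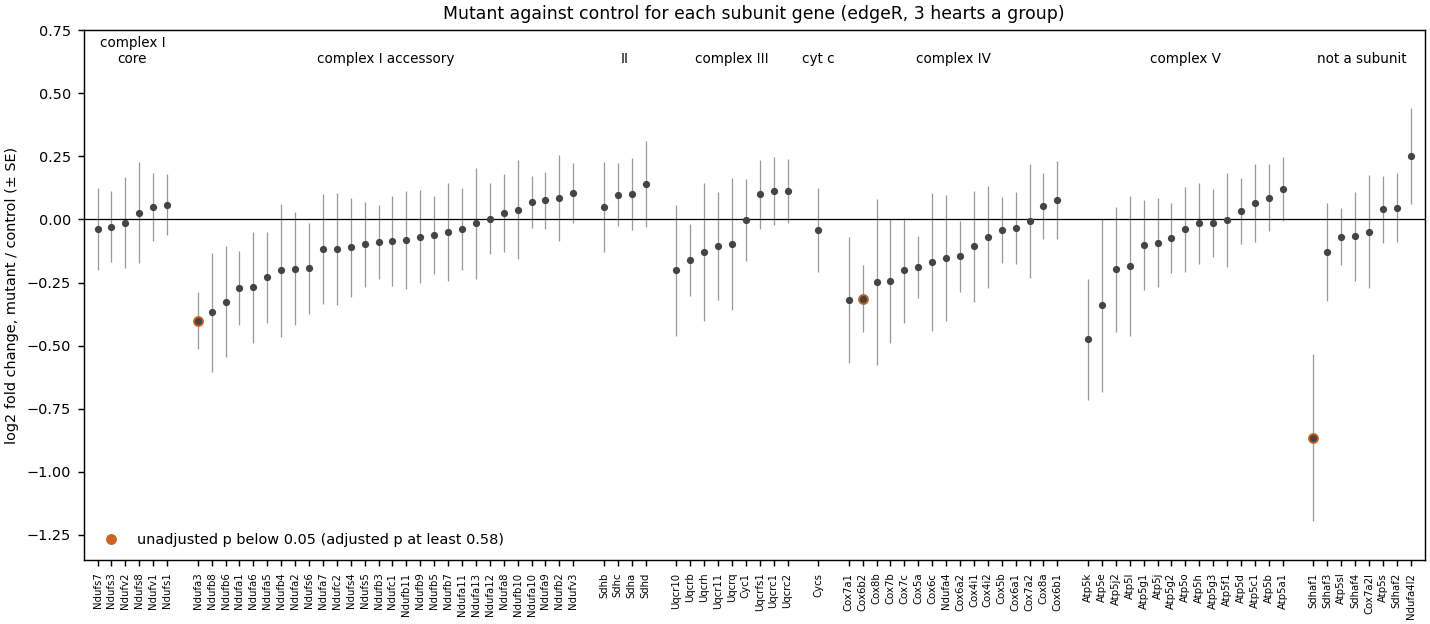
Log2 fold change, mutant over control, with its SE for 87 of the 88 genes tested, grouped by complex and ordered within it; orange points have an unadjusted p below 0.05. The 3 orange points, Ndufa3, Cox6b2 and Sdhaf1, all lie below 0, and the standing subunits lie between -0.48 and 0.14.

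Among the genes that are not standing subunits, Sdhaf1, which helps insert the iron-sulphur clusters of Sdhb, had the lowest fold change of all members. It had 150, 71 and 71 counts in controls 2, 3 and 5 and 55, 50 and 51 counts in mutants 1, 5 and 10. The groups did not overlap, and the log2 fold change was -0.86 ± 0.33 (SE, unadjusted p = 0.031, adjusted p = 0.827, edgeR), or -0.49 with control 2 left out. All of its coding bases lie inside another counted gene, E130208F15Rik, so its level is uncertain. Ndufa4l2 had the highest fold change at 0.25 ± 0.19 (adjusted p = 0.985), with 8.13, 9.17 and 8.24 FPKM in controls and 9.94, 7.70 and 11.98 FPKM in mutants. Mutant 5 lay below all controls. Cox7a2l stood at 269 ± 93.0 and 255 ± 9.06 FPKM.

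Genes around the chain were described from lists chosen with the members. Of the 13 subunits encoded in mitochondrial DNA, 5 had a fold change above 0 and 8 below, with a median of -0.04, and none passed the test. Single hearts turned this direction: without control 5 there were 10 above 0 and a median of 0.06, without mutant 1 there were 7 and 0.15, and without mutant 5 there was 1 and -0.25. Their summed level was 27347, 25843 and 28974 FPKM in controls 2, 3 and 5 and 21374, 32711 and 26822 FPKM in mutants 1, 5 and 10. Here mutant 5 was highest and mutant 1 lowest, whereas most nuclear subunits were highest in control 5. mt-Atp8, the short ATP synthase subunit, had the smallest p of this list (adjusted p = 0.911, edgeR). It stood at 9.40 ± 6.997 FPKM in controls and 4.11 ± 1.15 in mutants (SD, n = 3). Control 2 held 17.0 FPKM, and control 3, at 3.30 FPKM, lay within the mutant range of 2.95 to 5.26 FPKM. Mean control levels on this list ran from 7.18 to 9963 FPKM, and only uniquely mapped reads were counted. Sequence shared with other genes was not examined for this list, so its low values, that of mt-Atp8 among them, are uncertain.

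Of 42 assembly factors tested, 16 had a fold change above 0 and 26 below, with a median of -0.04, and 0 passed the adjusted threshold. Without control 5 there were 32 above 0 and 10 below, with a median of 0.07, and after the length correction 24 above 0 and 18 below, with a median of 0.01. At an unadjusted p below 0.05 there were 2 of 42, both lower in mutants, where 5.73% of all genes tested were found (2.59% lower). One was Sdhaf1. Pet100, which acts in assembly of complex IV and was named after its value was seen, stood at 10.9 ± 3.88 FPKM in controls and 6.93 ± 0.93 in mutants (adjusted p = 0.847). Of 16 regulators of mitochondrial biogenesis, 10 had a fold change above 0. Ppargc1b, a coactivator of this programme, had the smallest p, with 4.15 ± 1.005 FPKM in controls and 5.599 ± 0.66 in mutants and no overlap between groups (log2 fold change 0.47, unadjusted p = 0.046, adjusted p = 0.862). In all, 5 regulators did not overlap by CPM, each higher in mutants, where 6.61% of all genes tested showed this: Ppargc1b, Esrrb, Esrrg, Gabpa and Tfb2m. By FPKM Gabpa overlapped, with 50.3 in mutant 10 and 52.5 in control 3. Their log2 fold changes were 0.47, 0.28, 0.25, 0.16 and 0.12 with all hearts. Without control 5 they were 0.29, 0.25, 0.13, 0.11 and 0.16. Nrf1 and Yy1, named for the promoter elements above, had log2 fold changes of -0.06 and 0.02.

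Of 17 genes of the citric acid cycle and pyruvate dehydrogenase, 16 had a fold change above 0, with a median of 0.08, and 0 passed the adjusted threshold or an unadjusted p of 0.05. Mdh2, mitochondrial malate dehydrogenase, had the smallest p at 584 ± 18.8 FPKM in controls and 632 ± 39.0 in mutants (log2 fold change 0.15, adjusted p = 0.985), without overlap. By CPM, 2 of these 17 genes did not overlap, each higher in mutants, where 6.61% of all genes tested showed this. With any 1 heart left out the median of this list lay between 0.03 and 0.14, and that of the respiratory chain members between -0.14 and 0.15. After the length correction it was 0.11. By heart its median deviation was highest in mutant 10 at 0.15 and was -0.06 in control 5. Control 5 was highest for 3 of these 17 genes, against 67 of the 88 respiratory chain members.

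Most macrophage markers separated the groups, and every one was detected in every heart. All mutants lay above all controls for 6 of the 7 (6.61% of all genes tested did), and the sum of all 7 lay between 47.7 and 67.1 FPKM in controls and between 84.3 and 94.2 FPKM in mutants. The other marker, Mrc1, overlapped and ran the other way, with 3.05 to 4.31 FPKM in controls and 2.43 to 4.25 FPKM in mutants (log2 fold change -0.19). Of these 7 genes, 0 had an adjusted p below 0.05 in edgeR with all hearts, 1 did after the length correction or without a filter (C1qa), 2 in DESeq2 (C1qa and C1qb) and 3 without control 5 (C1qa, C1qb and C1qc). Endothelial markers summed to 300, 253 and 196 FPKM in controls 2, 3 and 5, epicardial markers to 187, 161 and 94.8 FPKM, and fibroblast and cushion markers to 1486, 1540 and 1053 FPKM, each lowest in control 5. The mutants held 264 to 332, 109 to 185 and 1539 to 2195 FPKM. The sums of the fibroblast and cushion list rest mainly on its collagens. Tcf21, a transcription factor of epicardium-derived fibroblasts, had the smallest p of that list and ran the other way, with 36.2 to 46.9 FPKM in controls and 16.1 to 23.3 FPKM in mutants, without overlap (log2 fold change -1.10, unadjusted p = 8.06e-05, adjusted p = 0.113, edgeR). Its adjusted p was 0.035 without control 5, 0.042 after the length correction and 0.0094 without a filter (edgeR), and DESeq2 called it with an adjusted p of 1.6e-07, and Col1a1, higher in mutants, with an adjusted p of 0.0498. Airway and foregut markers summed to at most 6.08 FPKM. The part of these cells in the respiratory chain values was not tested.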

How the data were processed

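Whole hearts of 3 control and 3 mutant E13.5 embryos were compared, 1 library a heart. Per the study's methods, paired-end reads were trimmed with Trim Galore, aligned to mm10 with RNA STAR and counted for uniquely mapped reads with featureCounts on GENCODE M19. The submitters' processing notes name HTSeq and DESeq2. Whether counting used strand is not given in the sources used here. The deposited counts are raw whole numbers per gene, and the FPKM values deposited by the authors equal the count divided by a fixed gene length and the heart's total. Pooled FPKM means of the groups were not used.

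Counts were tested with edgeR 4.0.16 in R 4.3.3 (TMM scaling, filterByExpr with a minimum count of 10 and a minimum total of 15, quasi-likelihood test, two-sided, Benjamini-Hochberg over 17473 genes, threshold 0.05). CPM are TMM-scaled, and deviations use log2 CPM with a prior count of 2. Alternatives were DESeq2 1.42.0, its size factors (RLE) in edgeR, no filter, a correction for gene length (a loess curve of span 0.5 of each heart's deviation on log2 length, used as offsets) and each heart left out. Fits were tested on simulated data. Labels say only that hearts are separate samples, and p-values measure the spread between them. Positions, coding bases and shared 50-base windows of transcripts are from GENCODE M21 (GRCm38).

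The members and lists were chosen with earlier results of these data known. Genes named were, for each complex, those with the highest and lowest fold change and the highest FPKM, members at an unadjusted p below 0.05 (at most 12), core and paired isoform genes and the gene with the smallest p in each other list. Other genes named (Atp5e, Atp5l, Ndufa10, Ndufb2, Pet100, Esrrb, Esrrg, Gabpa, Tfb2m, Nrf1, Yy1, C1qb, C1qc, Mrc1, Col1a1 and the genes with printed promoters) were chosen after their values were seen. 1 member is not reported singly here or drawn in the plots that name genes.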

Additional observations from a re-analysis of the deposited data

How the results depend on the processing

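No member passed the adjusted threshold under any of the 11 alternatives run, 1 of which (length correction without control 5) was added after the data were seen. No paired analysis was possible because the groups share only the replicate number 5. The count of members at an unadjusted p below 0.05 was 3, and 3 or 4 with RLE, DESeq2 or no filter. It was 1 with the length correction, 11 with the length correction without control 5, and 1 to 18 with each heart left out, highest without control 5. Over all genes, the calls at the adjusted threshold were 0 with edgeR, 133 with DESeq2, 34 without a filter, 13 with the length correction, 44 without control 5 and 54 with both changes. The median log2 fold change of the members ran from -0.14 (without control 3) to 0.15 (without control 5). Of 39 named members, all kept their sign with RLE and DESeq2, and 16 changed it without control 5. With the length correction the log2 fold changes that changed sign were Atp5g2 0.025, Atp5g3 0.052, Cox4i1 0.025, Cox5b 0.072, Cox6a1 0.074, Cox7a2 0.098, Cox7a2l 0.0081, Cox8b 0.0018, Cyc1 0.033, Ndufs7 0.060 and Uqcrh 0.031. With the length correction without control 5 they were Atp5g3 0.027, Cox4i1 0.16, Cox5b 0.00018, Cox6a1 0.051, Cox7a1 0.043, Cox7a2 0.28, Cox7a2l 0.26, Cox8b 0.28, Cyc1 0.12, Cycs 0.17, Ndufa4 0.19, Ndufs7 0.089, Sdha -0.046, Uqcr10 0.16 and Uqcrh 0.26. Without a filter they were Cox7a2 0.0072 and Cyc1 0.0094. With each heart left out, the members that changed sign in at least 1 fit ranged as follows: Atp5c1 -0.021 to 0.23, Atp5g1 -0.34 to 0.026, Atp5g2 -0.17 to 0.028, Atp5g3 -0.092 to 0.075, Cox4i1 -0.24 to 0.20, Cox4i2 -0.20 to 0.10, Cox5b -0.13 to 0.034, Cox6a1 -0.12 to 0.085, Cox6b1 -0.0088 to 0.24, Cox7a1 -0.54 to 0.057, Cox7a2 -0.17 to 0.33, Cox7a2l -0.21 to 0.29, Cox8a -0.012 to 0.16, Cox8b -0.51 to 0.29, Cyc1 -0.11 to 0.15, Cycs -0.14 to 0.16, Ndufa4 -0.33 to 0.23, Ndufs7 -0.17 to 0.13, Ndufv1 -0.048 to 0.16, Sdha -0.0050 to 0.18, Sdhb -0.063 to 0.25, Uqcr10 -0.38 to 0.19, Uqcrc1 -0.0063 to 0.17 and Uqcrh -0.31 to 0.30. The cause was not tested. Tested standing subunits had at least 263 counts in every heart. Counting error was not compared with the spread between hearts.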
